A study of Rattus norvegicus with 12 samples.

Results

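The insulin-like growth factor (IGF) family was examined in the contused spinal cord of immunocompetent and T cell-deficient rats. Of 10 genes named for the family, 6 were found among the 17423 genes listed in the 2 tables. These were the ligand Igf2, the receptor Igf1r and the binding proteins Igfbp3, Igfbp4, Igfbp5 and Igfbp7. Igf2 and Igfbp4 were matched directly, and the other 4 of these by their place and strand in the genome. The remaining 4 genes, namely Igf1, Igf2r, Igfbp2 and Igfbp6, could not be matched to a listed identifier and are not analysed here. The family was selected on measured values of these same tables, so its levels and ratios are given as a description, with no test.

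Igf1 and Igf2 are small secreted peptides related to insulin that promote growth and survival of many cell types. They signal through Igf1r, a tyrosine kinase receptor at the cell surface, and Igf2r takes up Igf2 for degradation. The binding proteins hold the ligands outside the cell, where they prolong the ligands' life and limit or deliver them to the receptor, and proteases that cut the binding proteins release the ligand. In the nervous system Igf2 is known as a product of the meninges and choroid plexus.

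The animals were 12 female rats aged 16 to 18 weeks, each given a 200 kdyn contusion of the cord with a mechanical impactor. Sprague-Dawley rats (SD, Hsd:SD) have T cells, while athymic nude rats (AN, Hsd:RH-rnu/rnu) carry the rnu mutation and lack a thymus. Polyadenylated RNA was sequenced from a 1-mm segment of cord taken through the lesion, with 3 rats per strain killed 1 week after injury (acute phase) and 3 per strain killed after 8 weeks (chronic phase). All rats were injured and uninjured cord is not analysed here. The strains differ in their whole genetic background as well as in T cells.

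Expression is given as FPKM, a count of sequenced fragments scaled to transcript length and to library size, which the authors deposited as 1 value for each group of 3 rats. No spread between rats can be given, and the tables do not give the number of fragments behind a value. A difference is therefore a ratio of 2 group values, and its size was not set against the variation between animals, since the statistics of the authors' own comparison were not used. Ratios are on the log2 scale with no pseudocount, AN over SD or chronic over acute, and a gene counts as past the threshold when it is at least 2-fold different. The share of all genes past that threshold stands beside the counts, over genes with an FPKM above 0 in both groups and of at least 1 in at least 1 of them. Because tissue RNA was pooled over cell types, fewer cells of a type and less RNA per cell cannot be told apart.

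The detected family covered a wide range of levels. Igfbp7 was the highest of the 6 genes in all 4 groups, and Igf1r the lowest. The row called Igfbp7 was chosen by inferred strand alone, as described below. In acute SD cord the order by FPKM was Igfbp7 (963), Igfbp5 (384), Igfbp3 (166), Igf2 (119), Igfbp4 (56.1) and Igf1r (5.26). In acute AN cord Igf2 (40.6) lay below Igfbp4 (115). In the chronic phase Igf2 stood second to Igfbp7 in both strains, at 409 in SD and 852 in AN rats. With 1 value per group, whether neighbours in these orders differ beyond their spread could not be judged. FPKM is scaled to transcript length, which allows such comparison of levels between genes within a group.

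**Figure D1:**
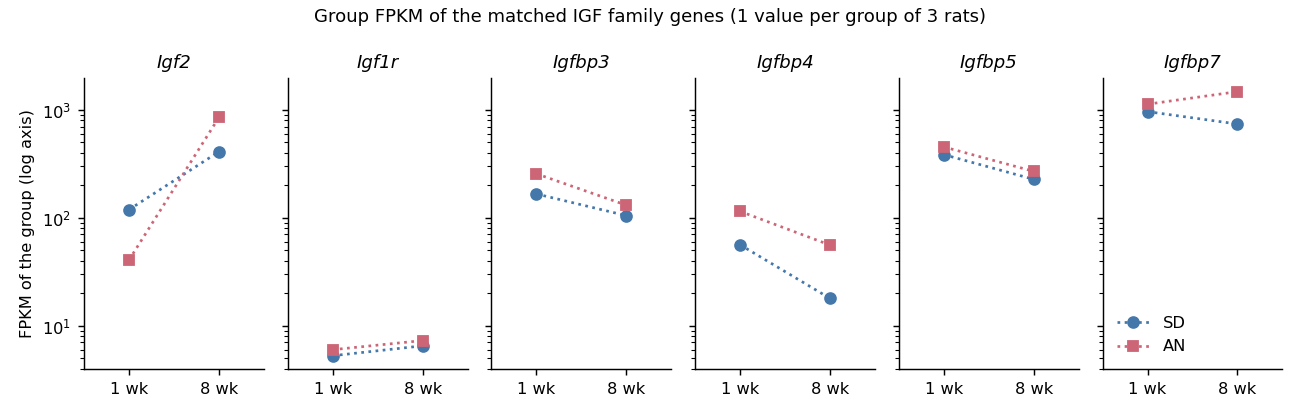
FPKM of the 6 matched genes (log axis) at 1 week (1 wk, acute) and 8 weeks (8 wk, chronic); each point is the single value of a group of 3 rats, blue circles SD and red squares AN, and dotted lines join the phases of a strain without implying that the same rats were followed. Igf2 is lower in AN than SD rats at 1 week (40.6 against 119) and higher at 8 weeks (852 against 409), whereas the 4 binding proteins and Igf1r are higher in AN rats at both times.

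Igf2 (RGD:2870) is listed on chromosome 1 of the RN4 genome from 202906624 to 202915231. The tables list no strand, and the strands given here were inferred from the numbering of the loci, which matched the annotated strand for 96.4% of 3649 directly named genes. By this Igf2 lies on the minus strand. It is an imprinted gene, expressed in most tissues from the paternal copy, and is far more active before birth than in adult life. Its FPKM was 119 (SD) against 40.6 (AN) at 1 week and 409 against 852 at 8 weeks. It was thus lower in AN than in SD rats in the acute phase, and higher in AN rats in the chronic phase. The acute log2 ratio was -1.55, a 2.93-fold lower level in AN rats, and 6.37% of all genes had a ratio as low or lower. The chronic log2 ratio was 1.06, a 2.08-fold higher level in AN rats, and 2.05% of all genes had a ratio as high or higher. With FPKM rescaled to equal sums in each group the chronic log2 ratio was 0.99, just under 2-fold.

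Such a turn of direction was uncommon among listed genes. Of 11108 genes that entered the comparison in both phases, 11 genes (0.099%) were at least 2-fold lower in AN rats in the acute phase and at least 2-fold higher in the chronic phase, and Igf2 was 1 of them. With FPKM rescaled to equal sums Igf2 left this set, since its chronic log2 ratio was 0.99. The acute minus the chronic log2 ratio of Igf2 was -2.61, and 0.306% of genes had a difference as low or lower. The rats of the phases were different animals, and the 4 values of Igf2 make up all of these ratios, so they are not separate pieces of evidence.

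From 1 to 8 weeks, Igf2 was 3.44-fold higher in SD and 21.0-fold higher in AN rats. On the log2 scale these ratios were 1.78 and 4.39. Of all genes, 0.523% matched or exceeded the SD ratio and 0.0356% the AN ratio. The FPKM of the phases were normalized in separate tables, and the median gene moved by 0.01 in SD and 0.03 in AN rats on the log2 scale between them. At 8 weeks in AN rats Igf2 ranked 75 among the 14084 genes with an FPKM above 0, against 2712 of 13987 at 1 week. In SD rats its ranks were 179 of 14274 at 8 weeks and 822 of 14288 at 1 week.

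Igf1r (RGD:2869), the receptor through which both ligands signal, spans 122704976 to 122990007 on the plus strand of chromosome 1. Its FPKM was 5.26 (SD) against 5.98 (AN) at 1 week and 6.49 against 7.27 at 8 weeks. The 4 values lay within 0.47 on the log2 scale, the narrowest range of the 6 genes. The log2 ratio of AN over SD rats was 0.19 at 1 week and 0.16 at 8 weeks. Igf2 exceeded Igf1r by a factor of 22.6 (SD) against 6.79 (AN) at 1 week and 63.1 against 117 at 8 weeks.

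Igfbp4 (RGD:2875) lies on the plus strand of chromosome 10 from 87822429 to 87834315. Its protein is a carrier that mostly inhibits IGF action until the protease pappalysin cuts it. Igfbp4 FPKM was 56.1 (SD) against 115 (AN) at 1 week and 17.9 against 55.8 at 8 weeks. AN rats were higher in both phases, by 2.04-fold at 1 week and 3.12-fold at 8 weeks (log2 ratios of 1.03 and 1.64). Of all genes, 1.89% at 1 week and 0.682% at 8 weeks had a ratio as high or higher. With FPKM rescaled to equal sums the acute log2 ratio was 0.94, under 2-fold. Igfbp4 was at least 2-fold higher in AN rats in both phases, as were 73 genes (0.657%) of the 11108. From 1 to 8 weeks it was 3.14-fold lower in SD and 2.05-fold lower in AN rats, so that the chronic AN value was close to the acute SD value.

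Igfbp3 (RGD:2874), the main carrier of IGFs in blood, is listed on chromosome 14 from 87959153 to 87967085, with the minus strand inferred. Its FPKM was 166 (SD) against 256 (AN) at 1 week and 105 against 131 at 8 weeks. AN rats were 1.54-fold higher at 1 week and 1.25-fold higher at 8 weeks. The acute log2 ratio of 0.62 was matched or exceeded by 6.71% of all genes, and the chronic ratio of 0.32 by 14.4%. The level was lower at 8 weeks than at 1 week, by 1.59-fold in SD and 1.96-fold in AN rats.

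Igfbp5 (RGD:2876), a binding protein that also attaches to extracellular matrix, runs from 72003637 to 72016263 on the minus strand of chromosome 9. Igfbp5 values were 384 (SD) against 453 (AN) at 1 week and 227 against 269 at 8 weeks, in FPKM. Its AN over SD log2 ratio was 0.24 at 1 week and 0.25 at 8 weeks, a difference of -0.01 between the phases. It was lower at 8 weeks by 1.70-fold in SD and 1.69-fold in AN rats. Igfbp3, Igfbp4 and Igfbp5 were therefore all lower at 8 weeks than at 1 week in each strain, while Igf2 was higher.

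Igfbp7 (RGD:1306201), which binds IGFs with low affinity and is abundant in vessel walls, is listed on chromosome 14 from 33010198 to 33107615, with the plus strand inferred. The tables give the same span to the gene of the opposite strand, Polr2b (RGD:1309477), which encodes a subunit of RNA polymerase II. This inferred strand alone decided which row was called Igfbp7. The row called Polr2b held 29.1, 30.8, 29.5 and 30.0 FPKM in acute SD, acute AN, chronic SD and chronic AN cord. Whether the fragments were counted by strand is not given in the sources used here, so reads of overlapping parts of these genes may not be told apart. The FPKM of Igfbp7 was 963 (SD) against 1129 (AN) at 1 week and 739 against 1476 at 8 weeks. AN rats were 1.17-fold higher at 1 week and 1.996-fold higher at 8 weeks, the latter just short of the threshold, and 2.29% of all genes had a chronic ratio as high or higher. From 1 to 8 weeks its level was 1.30-fold lower in SD and 1.31-fold higher in AN rats.

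Counted over the 6 genes, 1 (Igfbp4) was at least 2-fold higher in AN rats in the acute phase, where 2.07% of all 11326 genes were, and 1 (Igf2) was at least 2-fold lower, where 11.4% were. In the chronic phase 2 of the 6 (Igf2 and Igfbp4) were at least 2-fold higher in AN rats, against 2.27% of 11429 genes, and 0 were at least 2-fold lower, against 6.33%. The median log2 ratio of the 6 was 0.23 at 1 week and 0.66 at 8 weeks, where the median of all genes was 0.00 in both. Of the 6 genes, 5 had a ratio above 0 at 1 week and 6 at 8 weeks, as did 49.8% and 50.8% of all genes.

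**Figure D2:**
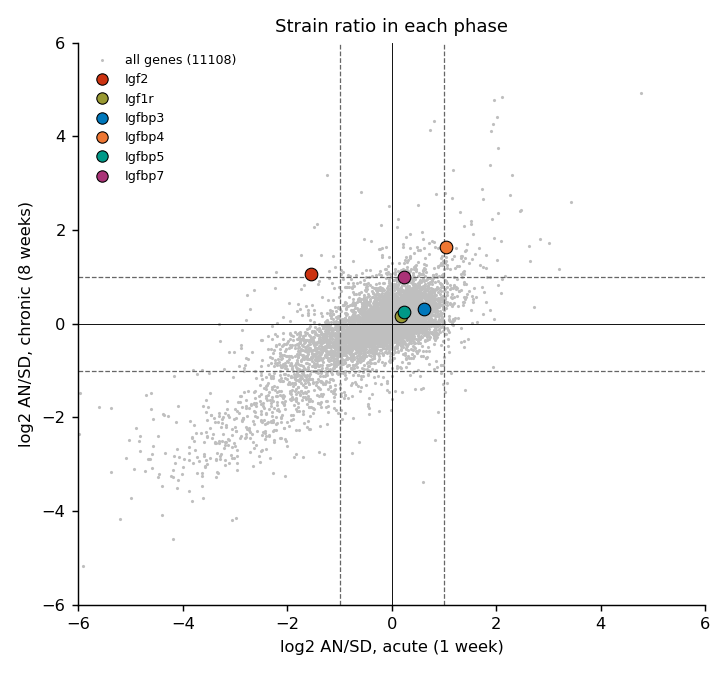
Log2 ratio of AN over SD FPKM in the acute phase (horizontal axis) and the chronic phase (vertical axis); each grey point is 1 of 11108 genes with a ratio in both phases, coloured circles are the 6 IGF family genes, dashed lines mark 2-fold, and 4 genes lie outside the axes. Igf2 stands alone among the 6 in the upper left, at -1.55 and 1.06, while Igfbp4 lies in the upper right, at 1.03 and 1.64.

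Between the phases, 1 of the 6 genes (Igf2) was at least 2-fold higher at 8 weeks in SD rats, against 3.58% of 11479 genes, and 1 (Igfbp4) was at least 2-fold lower, against 3.82%. In AN rats the same counts were 1 (Igf2) and 1 (Igfbp4), against 12.7% of 11233 genes higher and 6.37% lower. The median log2 ratio of the 6 was -0.53 in SD and -0.24 in AN rats. These ratios use the same 4 values per gene as the strain ratios.

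**Figure D3:**
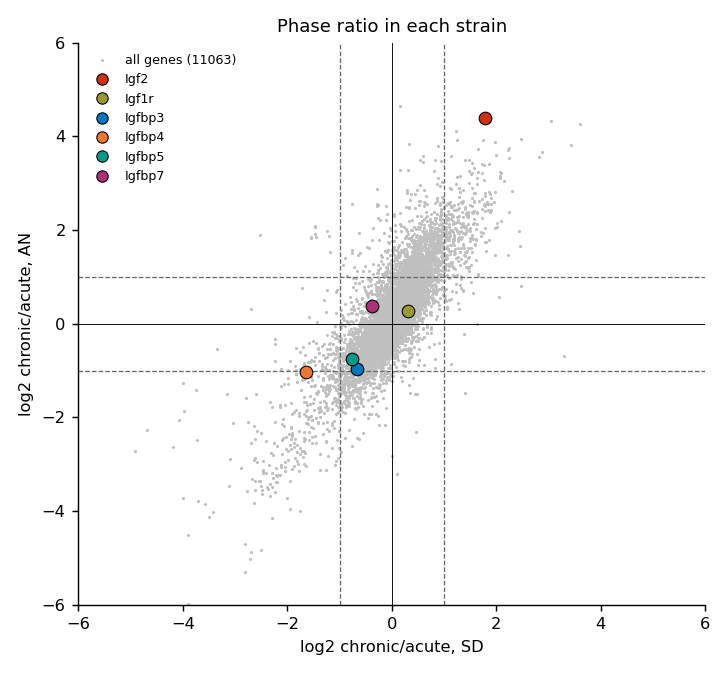
Log2 ratio of chronic over acute FPKM in SD (horizontal axis) and AN rats (vertical axis); each grey point is 1 of 11063 genes with a ratio in both strains, coloured circles are the 6 IGF family genes, dashed lines mark 2-fold, and 1 gene lies outside the axes. Igf2 lies at 1.78 and 4.39, and Igfbp4 lies at -1.65 and -1.04.

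The makeup of the binding proteins was compared as shares of their summed FPKM. The 4 matched binding proteins summed to 1570 (SD) against 1952 (AN) at 1 week and 1089 against 1931 at 8 weeks. Igfbp7 held the most in each group, at 61.3%, 57.8%, 67.9% and 76.4% in that order. Igfbp5 held 24.5%, 23.2%, 20.8% and 13.9%, and Igfbp3 held 10.6%, 13.1%, 9.60% and 6.77%. Igfbp4 was the least, with 3.57%, 5.87%, 1.64% and 2.89%, and its share was larger in AN than in SD rats in each phase. These sums and shares rest on the row called Igfbp7, which inferred strand alone told apart from Polr2b. Read from the other row, at 29.1, 30.8, 29.5 and 30.0 FPKM, Igfbp7 would not hold the most in any group.

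Set against Igf2, the summed binding proteins were 13.2 times its FPKM in acute SD and 48.1 times in acute AN cord. In the chronic phase they were 2.66 times in SD and 2.27 times in AN cord. By these values the ratio was higher in AN than in SD rats at 1 week and lower at 8 weeks. Without the low-affinity Igfbp7 the ratios were 5.10 (SD) against 20.3 (AN) at 1 week and 0.853 against 0.534 at 8 weeks, and Igf2 exceeded the other 3 together in the chronic phase of each strain. Igf1, Igfbp2 and Igfbp6 are missing from these sums, which hence do not give the whole balance of ligand and carrier.

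**Figure D4:**
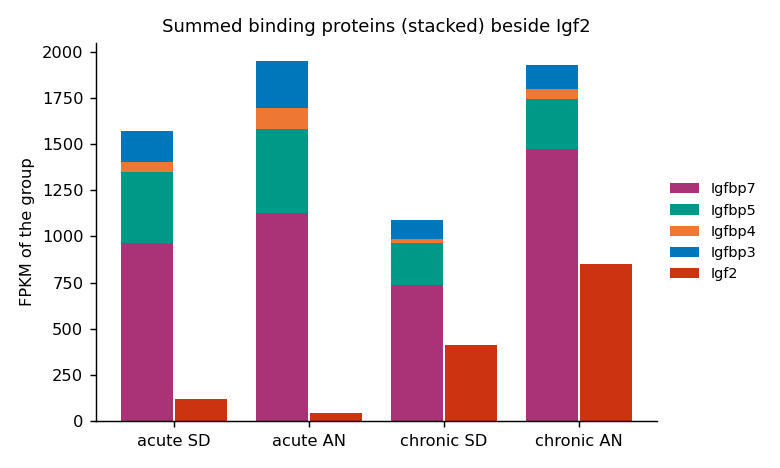
FPKM of the 4 matched binding proteins, stacked, and of Igf2 in a bar beside them, for each group (1 value per group of 3 rats). The binding proteins sum to between 1089 and 1952, while Igf2 runs from 40.6 in acute AN to 852 in chronic AN cord.

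Other genes of the insulin and IGF system were counted in the same way, where 2.07% of all genes were at least 2-fold higher and 11.4% lower in AN rats at 1 week, and 2.27% higher and 6.33% lower at 8 weeks. Of 10 further genes listed with the family, 7 were matched, and 3 of them entered the strain comparisons, with 0 past 2-fold in either phase. Both the 10 and the 3 include at least 1 gene for a protein that binds Igf2 mRNA and is not an IGF carrier. Insr, the insulin receptor, had 8.04 (SD) against 9.79 (AN) at 1 week and 7.31 against 10.3 at 8 weeks. Igfbp1, a binding protein made mainly by liver, stayed at an FPKM of 0.0551 or below in each group, and lies beside Igfbp3 on chromosome 14. Of 39 genes of signalling downstream of the receptor 19 were matched, and 0 of the 19 were past 2-fold in either phase, with a median log2 ratio of 0.15 at 1 week and 0.10 at 8 weeks. The adaptor Irs1 had 4.46, 5.03, 4.38 and 4.79 FPKM in acute SD, acute AN, chronic SD and chronic AN cord. The kinase Akt1 had 147, 178, 109 and 121 in the same order. Of 8 genes of the growth hormone axis, 3 were matched and 0 were past 2-fold in either phase. Of 11 matrix proteins related to the binding proteins 2 were matched, with 0 past 2-fold.

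Among the proteases that cut binding proteins and their inhibitors, 5 of 16 were matched. The protease cathepsin D (Ctsd) was listed at 0 in acute AN rats with a status of failed estimate, so no ratio was formed for it there. Pappa, Ghr, Irs2 and H19 were not matched and are not analysed here.

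Of 16 imprinted genes 8 were matched, and 7 could be compared in each phase. In the acute phase 3 of 7 were at least 2-fold lower in AN rats (11.4% of all genes) and 0 higher (2.07%). The 3 were Gnas, the stimulatory G protein subunit (13.6 in SD and 1.45 in AN, log2 ratio -3.23), Ndn, a neuronal growth suppressor (42.1 and 9.71, -2.11), and Nnat, a small membrane protein of neural cells (189 and 86.3, -1.13). In the chronic phase Ndn (-2.43), Gnas (-2.36) and Plagl1 (-1.41), a zinc finger transcription factor, were at least 2-fold lower in AN rats (3 of 7, against 6.33% of all genes) and 0 were higher (2.27%). On the log2(FPKM + 1) scale the chronic ratio of Plagl1 was -0.93, under 2-fold. The median log2 ratio of the 7 was -0.10 at 1 week and -0.42 at 8 weeks. At 8 weeks Nnat was 679 in SD against 505 in AN cord, so that like Igf2 it was above its acute level in both strains, but it did not turn direction between strains.

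The genes with a pattern most like that of a member were sought among the genes named directly whose FPKM reached 1 in all 4 groups, by root mean square distance over the 4 log2 FPKM values, each centred on its own mean. For Igf2 the nearest of 3268 genes were Calml4 (distance 0.36), Car14 (0.52) and Vstm2b (0.52). None of these 3 shared the 2-fold chronic excess in AN rats, with log2 ratios of 0.04, -0.17 and 0.23. For Igfbp4 the nearest were Aurkb (0.04), a kinase of mitosis, Fabp4 (0.07), a fatty acid carrier of adipocytes and macrophages, and Slpi (0.09), a secreted protease inhibitor. For Igfbp3 they were Cers6 (0.03), Pabpc4 (0.04) and Stxbp2 (0.04), all with AN over SD ratios of less than 2-fold. Each likeness rests on 4 values.

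Markers of the cell types in the segment also differed between these groups. At least 2-fold lower in AN rats were 11.4% of all genes at 1 week and 6.33% at 8 weeks. Of 12 neuron markers 9 were matched, and 8 of 9 were at least 2-fold lower in AN rats in the acute phase and 9 of 9 in the chronic phase. Their summed FPKM was 818 (SD) against 75.2 (AN) at 1 week and 728 against 171 at 8 weeks. Snap25, a synaptic protein, was 179, 6.79, 213 and 24.1 in that order. The astrocyte markers Slc1a2, S100b and Gja1 summed to 2443, 882.9, 4845 and 3500, and Gfap was listed at 0 in chronic SD cord with a status of failed estimate. Of the astrocyte markers 3 of 4 were at least 2-fold lower in AN rats in the acute phase and 0 of 3 in the chronic phase. The 4 Schwann cell markers summed to 1672, 596, 1555 and 1829, with 3 of 4 at least 2-fold lower in AN rats in the acute phase and 0 of 4 in the chronic phase. The 5 oligodendrocyte markers summed to 2584, 1320, 2468 and 2558, with 3 of 5 at least 2-fold lower in AN rats at 1 week and 0 of 5 at 8 weeks.

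Macrophage and microglia markers (9 of 11 matched) summed to 1725 (SD) against 2608 (AN) at 1 week and 1048 against 1284 at 8 weeks. Cd163, a scavenger receptor of macrophages, was higher in AN rats by a log2 ratio of 1.95 at 1 week and 1.84 at 8 weeks, and Mrc1 by 1.24 in the chronic phase. Of the 9, 3 were at least 2-fold higher (2.07% of all genes) and 1, Lyz2, lower (11.4%) in AN rats in the acute phase, and 2 higher (2.27%) and 1, again Lyz2, lower (6.33%) in the chronic phase. The row named Lyz2 was low, at 20.5 (SD) against 1.12 (AN) at 1 week and 13.2 against 0.546 at 8 weeks. Whether the symbol fits this row was not tested. The median log2 ratio of the 9 was 0.66 at 1 week and -0.03 at 8 weeks, so the higher chronic sum in AN rats was not shared by most of the list. The 4 matched markers of fibroblasts and meninges, of 12 listed, summed to 904, 1367, 562 and 813, and 0 of them were past 2-fold between strains. The T cell list (7 of 8 matched) summed to 184.5 (SD) against 246.4 (AN) at 1 week and 130.4 against 109.1 at 8 weeks. Of 5 compared in each phase, 3 were at least 2-fold lower (Cd3g, Cd3e and Cd4) and 1 higher (Cd8a) in AN rats at 1 week, and 0 lower and 1 higher (Cd2) at 8 weeks. On the log2(FPKM + 1) scale Cd3e (-0.61) and Cd2 (0.74) were under 2-fold, as was Cd2 (0.95) with FPKM rescaled to equal sums. Cd3g, part of the CD3 complex, was 2.74 (SD) against 0.531 (AN) at 1 week and 2.58 against 1.40 at 8 weeks, and Cd8a, a coreceptor, was 76.0 against 199 and 29.5 against 22.8. The pericyte and smooth muscle list (4 of 7) summed to 103, 73.3, 91.0 and 106, with 1 of 4 (Myh11, log2 ratio -1.06) at least 2-fold lower in AN rats at 1 week and 0 of 4 at 8 weeks. The call of Myh11 was lost on the log2(FPKM + 1) scale (-0.93). The endothelial list held 1 matched gene of 7. The part of any of these cell types in the values of Igf2 and the binding proteins was not tested.

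**Figure D5:**
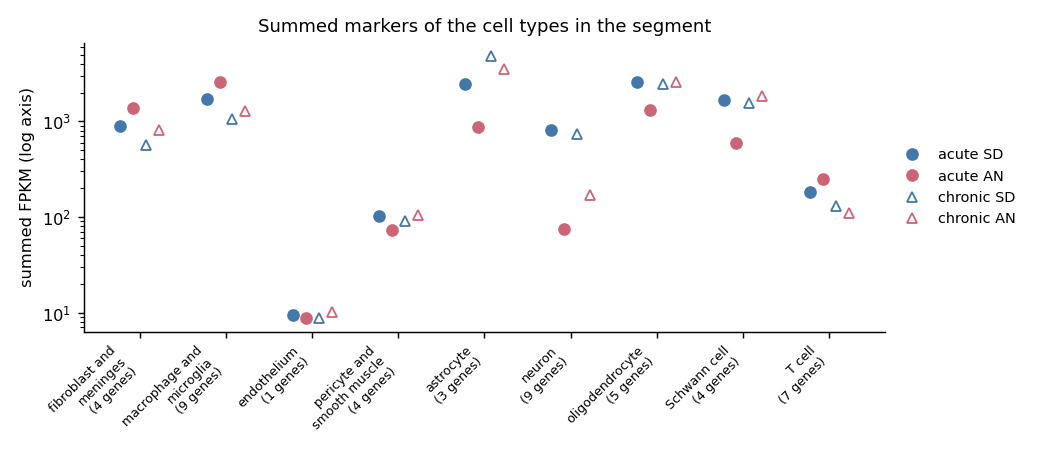
Summed FPKM (log axis) of the matched markers of each cell type that had an FPKM above 0 in all 4 groups, with their number under the axis; filled circles are acute and open triangles chronic groups, blue SD and red AN, 1 value per group of 3 rats. Neuron markers are lowest in acute AN cord (75.2) and low in chronic AN cord (171), while the sums of the fibroblast and macrophage lists are higher in AN than in SD rats in both phases; at 8 weeks the macrophage list's median log2 ratio is -0.03.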

How the data were processed

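Values came from 2 tables of 17423 genes, 1 per phase. The authors removed adapters with cutadapt, mapped paired reads to RN4 with TopHat 1.5.0, assembled transcripts with Cufflinks 0.0.6 under quartile normalization and compared strains with Cuffdiff. The FPKM the authors deposited are 1 value per group of 3 rats. Further deposited columns hold the authors' fold changes, statistics, p-values and q-values, and were not used. Rats were grouped by the strain and time point in their labels.

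Genes are listed by RGD number. Igf2 and Igfbp4 were named directly, through the supplementary gene list or RefSeq synonyms. Igf1r, Igfbp3, Igfbp5 and Igfbp7 were named by their place between named neighbours, by strand and by genomic span. Spans had to fit within a factor of 1.05. A factor of 2.0 was allowed where rows and genes between the neighbours were equal in number, with strands in the same order. Where rows of opposite strands shared a locus, as for Igfbp7, the joint span of neighbouring genes was fitted. Of 1104 directly named genes hidden and named again in this way, 97.4% were right; the span limit was set with that accuracy in view. Directly named were 4535 and by place 5012 genes. Strand was inferred from the numbering of the loci.

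Log2 ratios and counts were computed in Python 3 with pandas, and the ratio step was tested on simulated data. No test was made. The result of 1 gene of the protease list, and that list's counts past 2-fold, are not reported here. The genes named for lists were, per list and phase, at most 5 past 2-fold, the largest first, plus Igfbp1, Insr, Irs1, Akt1 and the unmatched genes stated. Members and lists were chosen with earlier results of these data known.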

Additional observations from a re-analysis of the deposited data

How the results depend on the processing

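The counts of IGF family genes past 2-fold were recomputed under other filters, scalings and folds, and of 72 such or makeup values 55 stayed within 1.5 times the main one. The low-value filters could not change a count, since all 6 genes had an FPKM above 1 in each group. Nor could keeping only directly named genes, since only Igf2 and Igfbp4 were past 2-fold. All recomputed makeup values moved by more than 1.5 times. At 1.5-fold, 2 genes were higher in AN rats in the acute phase (7.51% of all genes). At that fold 3 were lower at 8 weeks than at 1 week in SD rats (8.89%) and 3 in AN rats (13.4%). At 3-fold, 0 were higher (0.592% of all genes) and 0 lower (6.1%) in AN rats in the acute phase. In the chronic phase 1 was higher in AN rats (0.831%), and 0 were lower at 8 weeks than at 1 week in AN rats (2.88%). When FPKM were rescaled to equal sums, 0 genes were higher in AN rats in the acute phase (1.61% of all genes), since the log2 ratio of Igfbp4 became 0.94. In the chronic phase 1 was higher (1.93%), since the log2 ratio of Igf2 became 0.99. Without Igfbp7, binding proteins over Igf2 came to 5.10, 20.3, 0.853 and 0.534 in acute SD, acute AN, chronic SD and chronic AN cord. In an alternative chosen after seeing the data, with Igfbp7 read from the other gene of its locus, they were 5.35, 21.0, 0.925 and 0.570.

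No ratio of the 6 genes changed sign under the filters, scalings and pseudocount of 1 tried, and 52 ratios of members and other named genes that were past 2-fold gave 7 values under 2-fold among 156 recomputed with the pseudocount and scalings. The calls lost were those of Cd3e (-0.61) and Myh11 (-0.93) at 1 week and Plagl1 (-0.93) and Cd2 (0.74) at 8 weeks with the pseudocount, and with equal sums Cd2 (0.95) beside Igfbp4 and Igf2 above. Leaving out each rat was not run, because each group holds 1 pooled value. No paired analysis was possible because the tables carry no value per rat. The tables give no fragment counts, 4 of 10 genes were not matched, and the levels of the phases come from tables normalized separately.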
